A study of Mus musculus with 9 samples.

Results

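The SoxB, SoxC and SoxD transcription factor genes were followed in cultured mouse oligodendrocyte progenitor cells (OPCs), the dividing cells that give rise to myelin-forming oligodendrocytes. The members were chosen by symbol: Sox2, Sox3 and Sox21 (SoxB), Sox4, Sox11 and Sox12 (SoxC), and Sox5, Sox6 and Sox13 (SoxD). These are 9 of the 56980 genes in the deposited count table, and each of the 9 passed the filter on low counts that left 17001 genes for testing. The study held 9 RNA sequencing libraries in 3 groups of 3, all from cells labelled as primary OPCs of genotype Trp53 -/- and all grown with 10 ng/mL PDGF-AA and forskolin. The group p53n carried no further change and is labelled control. The group BB-p53n DMSO expressed PDGF-BB, a growth factor that binds both PDGF receptors, and received the solvent DMSO. The group BB-p53n EZH2i was the PDGF-BB line with 5 µM tazemetostat for 48 hours, a drug that blocks EZH2, the enzyme of Polycomb repressive complex 2 (PRC2) that methylates a lysine of histone H3. DMSO was given only to PDGF-BB cells, so expression of PDGF-BB and the solvent cannot be told apart in BB-p53n DMSO against p53n. The same holds for any other difference between the cells of these groups, such as those in Xist and Sox10 given below. The labels do not name the PDGF-BB construct, the number of lines or clones, or separate cultures behind the libraries of a group. The p-values therefore rest on library-to-library spread alone, and that spread may be technical.

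Sox proteins bind DNA through an HMG box and bend it, and most of them act together with a partner factor. SoxB1 proteins (Sox2 and Sox3) keep neural precursors undifferentiated, often beside POU factors, and Sox21 is a SoxB2 repressor that opposes them. SoxC proteins (Sox4, Sox11 and Sox12) are activators of immature neural cells, and Sox4 is known to hold back myelination. SoxD proteins lack a transactivation domain of their own, and Sox5 and Sox6 restrain oligodendrocyte differentiation by competing with Sox10 and by recruiting co-repressors. Many developmental regulators with CpG-rich promoters are bound by PRC2 in other cell types; binding was not measured in these libraries.

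The promoter windows of the SoxC genes are shown because these close relatives went in different directions across the groups. Each window runs from 250 bases before to 50 bases after a RefSeq start of the gene (GRCm38.p6, gene strand, 5′ to 3′), and capitals mark CG dinucleotides. Sox4 lies at chr13:28953650-28953949 (minus strand), Sox11 at chr12:27342669-27342968 (minus strand) and Sox12 at chr2:152397997-152398296 (minus strand).
Sox4: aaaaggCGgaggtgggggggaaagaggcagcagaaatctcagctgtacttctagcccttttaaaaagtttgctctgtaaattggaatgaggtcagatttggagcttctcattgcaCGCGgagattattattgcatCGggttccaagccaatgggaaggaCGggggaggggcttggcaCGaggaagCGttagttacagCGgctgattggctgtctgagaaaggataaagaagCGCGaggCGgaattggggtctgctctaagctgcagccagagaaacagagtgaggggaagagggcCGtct
Sox11: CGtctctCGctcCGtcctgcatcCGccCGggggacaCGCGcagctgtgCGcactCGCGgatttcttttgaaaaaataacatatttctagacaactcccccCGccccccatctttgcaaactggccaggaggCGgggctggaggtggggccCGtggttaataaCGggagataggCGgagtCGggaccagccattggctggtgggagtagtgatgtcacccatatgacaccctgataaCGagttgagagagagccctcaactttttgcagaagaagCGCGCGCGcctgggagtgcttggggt
Sox12: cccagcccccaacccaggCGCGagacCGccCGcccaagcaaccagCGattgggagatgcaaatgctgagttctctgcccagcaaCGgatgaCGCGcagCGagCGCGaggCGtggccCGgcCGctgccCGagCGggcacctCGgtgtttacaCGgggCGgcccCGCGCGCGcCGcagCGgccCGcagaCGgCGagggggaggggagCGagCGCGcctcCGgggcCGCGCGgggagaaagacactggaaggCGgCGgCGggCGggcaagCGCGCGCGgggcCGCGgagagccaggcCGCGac
The Sox4 window held 12 CG dinucleotides, that of Sox11 held 21 and that of Sox12 held 47, against a median of 7 over 32851 RefSeq windows of the same length (quartiles 3 and 20). Only 1.44% of the windows held as many as Sox12. The windows of Sox2 and Sox5 are shown from the other families, with 27 and 3 CG dinucleotides. The Sox5 window lies inside the 954 kb span of the gene, far from its annotated 5′ end (144727703 in GRCm39). It thus stands for an internal start, and no window covers the 5′ end of Sox5. Sox2 lies at chr3:34649745-34650044 (plus strand) and Sox5 at chr6:143947057-143947356 (minus strand).
Sox2: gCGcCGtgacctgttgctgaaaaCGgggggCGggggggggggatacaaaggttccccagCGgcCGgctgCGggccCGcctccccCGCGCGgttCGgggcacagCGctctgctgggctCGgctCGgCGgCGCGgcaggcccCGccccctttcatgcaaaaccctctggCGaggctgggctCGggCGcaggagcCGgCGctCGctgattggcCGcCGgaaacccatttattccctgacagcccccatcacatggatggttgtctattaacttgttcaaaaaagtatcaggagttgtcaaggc
Sox5: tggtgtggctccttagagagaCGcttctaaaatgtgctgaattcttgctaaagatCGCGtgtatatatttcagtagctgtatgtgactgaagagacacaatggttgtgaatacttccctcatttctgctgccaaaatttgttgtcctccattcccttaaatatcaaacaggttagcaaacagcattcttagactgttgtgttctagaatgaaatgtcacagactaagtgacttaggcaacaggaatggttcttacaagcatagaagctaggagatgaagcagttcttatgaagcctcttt
Windows matched 8 of the 9 genes, with none for Sox3. Sox21 held 22 CG dinucleotides and Sox13 held 40, and the 6 listed starts of Sox6 held between 2 and 13. The windows were searched on both strands for ACAAAG and ACAATG, a pair of words of the Sox type, and for the POU octamer ATGCAAAT. Among all windows 18.7% held ACAAAG, 12.6% held ACAATG and 1.74% held ATGCAAAT. No match of one word can be a match of another, though their ends can overlap. The Sox2 window held ACAAAG 1 time, that of Sox5 held ACAATG 1 time and that of Sox12 held ATGCAAAT 1 time, while the windows of Sox4, Sox11, Sox13 and Sox21 held none. The Sox6 windows held ACAAAG up to 2 times and ACAATG up to 2 times. Such matches describe the letters in these windows and are not shown to be binding sites.

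Total counts lay between 19471768 and 34557109 per library, and 3 counts equalled 0.0868 to 0.154 CPM, the unit of level used here (counts over a TMM-adjusted library total). Mitochondrial genes took 4.46% to 5.76% of the counts in p53n, 2.44% to 2.62% in BB-p53n DMSO, then 1.34% to 1.54% in BB-p53n EZH2i. Trp53 reads remained in all libraries (group means of 7.34, 13.6 and 14.3 CPM in the order p53n, BB-p53n DMSO, BB-p53n EZH2i), Pdgfb received 1, 16 and 13 counts in sum, and Ezh2 was at 113, 172 and 112 CPM. The OPC markers summed to at least 4689 CPM in every library, but Sox10, a defining OPC transcription factor gene, was at 1.87 to 2.4 CPM in the p53n libraries against 284 to 317 and 452 to 470.0 CPM in the PDGF-BB groups. Markers of microglia summed to at most 2.84 CPM, those of mural cells and fibroblasts to at most 2.34 CPM and those of endothelium to at most 22 CPM.

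A trend across all genes touches every result with the inhibitor and is given before them. In BB-p53n EZH2i against BB-p53n DMSO the log2 fold change followed the GC content of the transcript (Spearman's rho 0.73 over 12514 genes with an average log2 CPM above 1) and, inversely, its exon length (rho -0.44). In BB-p53n DMSO against p53n the same values were 0.14 and -0.07. These are descriptions across genes, which are not independent replicates. The EZH2i comparison is therefore given for each member as fitted and again after taking out, library by library, the trend on those properties (called corrected here), which brought rho to 0.03 and -0.04. Whether the trend arises in the cells or in the preparation of the RNA was not tested, and the members span much of it, from 44.8% GC in Sox5 to 66.4% in Sox3.

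In BB-p53n DMSO compared with p53n cells, the comparison that addresses PDGF-BB expression together with solvent and any difference between the cells, the SoxC genes moved apart. Sox4 fell 2.89-fold and Sox11 rose 2.22-fold, while Sox12, the third SoxC gene, did not pass the test. Sox3, Sox21 and Sox13 fell between 2.47-fold and 2.73-fold, Sox5 fell 1.86-fold, Sox6 fell 1.17-fold, and Sox2 did not pass the test. In all, 1 of the 9 members was called higher and 6 lower by edgeR's quasi-likelihood test at an adjusted p under 0.05. Of all genes tested, 69.3% were called in this comparison, 35.3% higher and 34% lower. The libraries of both groups did not overlap for 7 members, against 76.1% of all genes. So the number of members called, 7 of 9, is close to the background. The median log2 fold change of the 9 members was -0.89, beside -0.02 over all genes, within a range from -1.53 to 1.15. Among them 4 fell at least 2-fold, a size of fall seen in 17.1% of all genes. Sox1, a SoxB1 gene outside the list, was at 0.04. The list was chosen with earlier results of these data known, so these values describe the listed genes alone. Corrected, the counts were again 1 higher and 6 lower, where 72% of genes were called (32.3% higher and 39.8% lower). Of the members, 1 rose at least 2-fold, against 12.7% of all genes. Bulk RNA cannot tell fewer cells of a type apart from less RNA per cell.

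In PDGF-BB cells with tazemetostat compared with BB-p53n DMSO, which addresses EZH2 inhibition, Sox6 fell 2.72-fold and Sox11 fell 2.17-fold. Sox2, Sox4, Sox5 and Sox21 fell between 1.27-fold and 1.6-fold, and Sox13, Sox3 and Sox12 were higher by 2.06-fold, 1.5-fold and 1.48-fold. All 9 members were called, 3 higher and 6 lower, where 72.9% of all genes were called, 37.3% higher and 35.6% lower. The groups did not overlap for any of the 9, against 75.3% of all genes without overlap. The members' median was -0.61, beside 0.02 over all genes. Corrected for GC content and length, 2 members were called higher and 7 lower, with a median of -0.45, where 57.9% of all genes were called (28.7% higher and 29.2% lower). As fitted, 1 member was at least 2-fold higher and 2 at least 2-fold lower, against 10.2% and 19.5% of all genes. Corrected, the numbers were 0 and 1, the latter being Sox21. The share of all genes at that size was not computed for the corrected fit. Sox2, Sox4, Sox6, Sox11 and Sox21 were lower and Sox13 higher both as fitted and corrected, whereas Sox3, Sox12 and Sox5 changed sign.

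**Figure D1:**
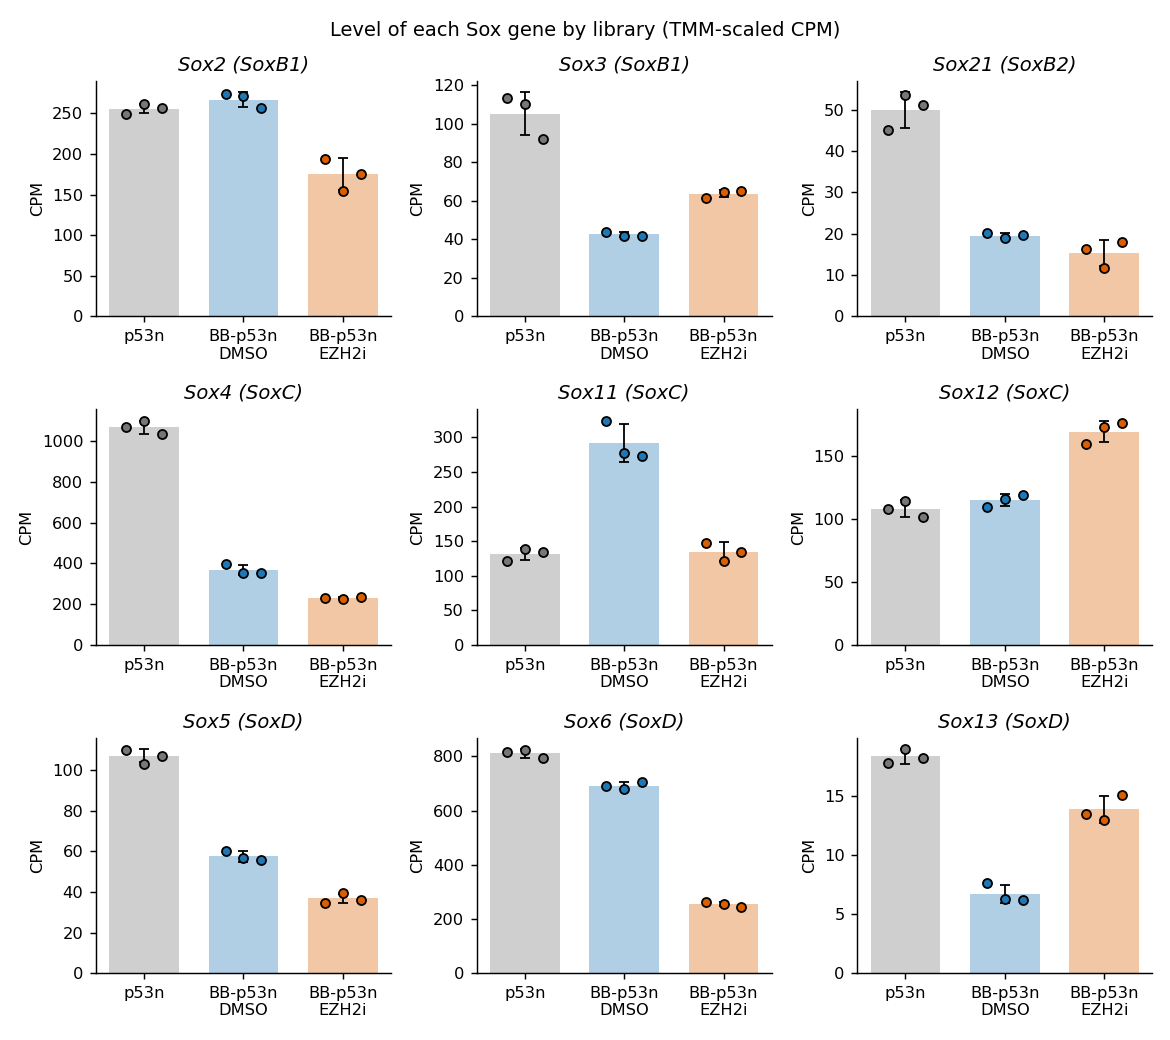
Level of each member in each library, in TMM-scaled CPM (y axis, starting at 0, a scale for each gene), for the 3 groups; bars are means of 3 libraries, points the libraries and error bars the SD. Sox4 steps down across the groups from a mean of 1067 to 369 and 229.9 CPM, whereas Sox11 is high in the BB-p53n DMSO libraries alone and Sox12 in the BB-p53n EZH2i libraries alone, a rise that turns to -0.17 (log2) after correction for GC content and length.

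Among the SoxB genes, Sox2 (ENSMUSG00000074637, chromosome 3, 34704554 to 34706610, GRCm39, a gene of 1 exon) had the highest level per exon length. It was at 249, 261 and 257 CPM in the p53n libraries, 274, 271 and 257 CPM in BB-p53n DMSO, then 194, 155 and 176 CPM in BB-p53n EZH2i. The first groups overlapped, and the inhibitor libraries lay below all others. Sox2 showed a log2 fold change of 0.06 (SE 0.07, adjusted p = 0.456 by edgeR) in BB-p53n DMSO against p53n. It then fell by 0.61 on the log2 scale with the inhibitor (SE 0.07, adjusted p = 2.7e-07), and by 0.99 after correction (adjusted p = 4.5e-10). Sox2 lies within the span of Sox2ot, a long noncoding RNA gene on the same strand, and shares no exon bases with it. Sox2ot was at 47.3, 54.2 and 53 CPM in p53n, 45.2, 42.2 and 40.6 CPM in BB-p53n DMSO, then 18.3, 19.9 and 18 CPM in BB-p53n EZH2i. The fall of Sox2ot with the inhibitor (log2 fold change -1.19, adjusted p = 2.1e-10) was 0.05 after correction (adjusted p = 0.674), unlike that of Sox2. The genes whose pattern over the 9 libraries was most like that of Sox2 were Hnrnph3, Ubp1 and Zfp207, with a root mean square difference of 0.052 to 0.056 in centred log2 CPM among 11389 genes compared. Such likeness was taken on uncorrected levels, so it includes the trend on GC content and length.

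Sox3 (ENSMUSG00000045179, chromosome X, 59934972 to 59937036, 1 exon), the close relative of Sox2, was at 113, 110.2 and 92 CPM in p53n, 44, 41.9 and 41.6 CPM in BB-p53n DMSO, then 61.6, 64.4 and 65 CPM in BB-p53n EZH2i. All PDGF-BB libraries lay below the lowest p53n value, and the inhibitor libraries stood between the other groups. It fell by 1.30 on the log2 scale in BB-p53n DMSO against p53n (SE 0.08, adjusted p = 7.8e-12). Against BB-p53n DMSO it was higher with the inhibitor by 0.58 (SE 0.08, adjusted p = 1.4e-06), but the corrected value was -0.19 (adjusted p = 0.0335). At 66.4% GC, Sox3 lies above 61.1%, the median of the highest of 20 GC bins of all genes. Xist, the RNA that silences an X chromosome, ranged from 2777 to 3101 CPM in p53n, from 46.2 to 65 CPM in BB-p53n DMSO, then 2.82 to 17.4 CPM in BB-p53n EZH2i. The median log2 fold change of the 574 tested genes on chromosome X was -0.08 in BB-p53n DMSO against p53n, beside -0.01 for the autosomes. The part of Xist or X dosage in the fall of Sox3 was not tested.

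Sox21 (ENSMUSG00000061517, chromosome 14, 118470644 to 118474442, 1 exon), the SoxB2 repressor, was at 45, 53.5 and 51 CPM in p53n, 20.1, 18.9 and 19.6 CPM in BB-p53n DMSO, then 16.3, 11.8 and 17.9 CPM in BB-p53n EZH2i. Its groups did not overlap. It fell by 1.35 on the log2 scale in BB-p53n DMSO (SE 0.11, adjusted p = 1.9e-09) and by 0.34 with the inhibitor (SE 0.12, adjusted p = 0.0147), the smallest change among the members in the latter comparison as fitted. Without BB-p53n EZH2i replicate 2, the lowest library, the latter was -0.19 (adjusted p = 0.104), while the corrected value over all libraries was -1.09 (adjusted p = 1.1e-07), the largest corrected change among the members. The 567 tested genes of chromosome 14 had a median log2 fold change of -0.49 in BB-p53n DMSO against p53n, beside 0.00 for the other autosomes, and the 36 tested genes within 5 Mb of Sox21 had a median of -0.49. Copy number was not tested. Gm4675 covers 18.8% of the Sox21 exon bases on the opposite strand, and the counting did not use strand. Gm4675 itself reached 3.28 CPM at most, which does not show how reads in the shared bases were assigned.

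The Sox2 to Sox3 ratio per exon length was 2.22, 2.38 and 2.81 in p53n and 6.26, 6.49 and 6.19 in BB-p53n DMSO. In BB-p53n EZH2i it was 3.17, 2.41 and 2.72, back in the range of p53n for 2 of the 3 libraries. The ratio did not overlap between p53n and BB-p53n DMSO (exact permutation test, two-sided p = 0.10, the smallest that 3 against 3 allows). Between BB-p53n EZH2i and p53n the exact permutation p was 0.40. After correction both genes were lower with the inhibitor, Sox2 at -0.99 and Sox3 at -0.19. Against p53n the corrected values were -1.14 for Sox2 and -1.92 for Sox3, so the return of the ratio to the p53n range is not kept after correction. The ratio of Sox2 to Sox21 went from 10.2, 9 and 9.32 in p53n to 25.2, 26.5 and 24.2 in BB-p53n DMSO, then 22, 24.3 and 18.2 in BB-p53n EZH2i. The PDGF-BB groups overlapped in this ratio (exact permutation test, p = 0.20). Its lower mean with the inhibitor is not kept after correction, where Sox2 was at -0.99 and Sox21 at -1.09.

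The list of SoxB1 partners and described targets, 10 genes, held 6 genes called higher and 4 lower in BB-p53n DMSO against p53n, with a median log2 fold change of 0.56 beside -0.02 over all genes, of which 69.3% were called (35.3% higher and 34% lower). Pou3f1, a POU partner of Sox2, rose from 2.09 to 130.3 CPM (log2 fold change 5.97, adjusted p = 4.0e-19). Pou3f3, another POU factor gene, rose from 158 to 330.5 CPM (1.06, adjusted p = 1.1e-11). Hes5, a Notch effector of precursor cells, fell from 59.9 to 5.36 CPM (-3.48, adjusted p = 3.7e-16). With the inhibitor 2 of the 10 were called higher and 8 lower (median -0.43 beside 0.02), and after correction 0 and 8. Of all genes 72.9% were called there (37.3% higher and 35.6% lower), and 57.9% after correction (28.7% higher and 29.2% lower). Pou3f2 went from 55.3 to 17.2 CPM (log2 fold change -1.67, adjusted p = 3.8e-10; corrected -1.04). Chd7, a chromatin remodeller that acts with Sox2, went from 213 to 106 CPM (-1.01, adjusted p = 6.5e-10; corrected -0.71), and Pou3f3 fell by 0.78 on the log2 scale.

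Among the SoxC genes, Sox4 (ENSMUSG00000076431, chromosome 13, 29132902 to 29137696, 1 exon) had the highest level per exon length of any member in p53n. It was at 1068, 1098 and 1034 CPM in p53n, 397, 355 and 355 CPM in BB-p53n DMSO, then 230.1, 224 and 236 CPM in BB-p53n EZH2i. Every step went down and no groups overlapped. Sox4 fell by 1.53 on the log2 scale in BB-p53n DMSO (SE 0.07, adjusted p = 3.5e-14; corrected -1.71) and by a further 0.68 with the inhibitor (SE 0.07, adjusted p = 1.1e-08; corrected -0.91, adjusted p = 6.8e-11). From p53n to BB-p53n EZH2i it fell 4.64-fold. Bnip3l, Rap2a and Plpp3 were the genes most like it across the 9 libraries in uncorrected levels (root mean square difference 0.086 to 0.101). Bnip3l went from 86.9 to 32.7 and 21.2 CPM.

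Sox11 (ENSMUSG00000063632, chromosome 12, 27384263 to 27392573, 1 exon) had the opposite first step. It was at 122, 138 and 135 CPM in p53n, 324, 278 and 273 CPM in BB-p53n DMSO, then 148, 121 and 134 CPM in BB-p53n EZH2i. The BB-p53n DMSO libraries stood above all others, and the remaining groups overlapped. Sox11 rose by 1.15 on the log2 scale in BB-p53n DMSO (SE 0.08, adjusted p = 1.7e-10; corrected 1.03). With the inhibitor it fell by 1.11 (SE 0.08, adjusted p = 3.6e-10), which became -0.57 after correction (adjusted p = 5.5e-07) and -0.19 (adjusted p = 0.0162) where the length of the longest transcript stood in for exon length. Between BB-p53n EZH2i and p53n the fitted value was 0.03 (SE 0.08, adjusted p = 0.711) and the corrected value 0.46 (adjusted p = 4.6e-06). How far Sox11 went back to the p53n level with the inhibitor thus depends on the treatment of GC content and length.

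Sox12 (ENSMUSG00000051817, chromosome 2, 152235531 to 152239983) was at 108, 114 and 101 CPM in p53n, 109.5, 116 and 119 CPM in BB-p53n DMSO, then 159.5, 173 and 176 CPM in BB-p53n EZH2i. The inhibitor libraries were the highest, and the other groups overlapped. The log2 fold change was 0.09 (SE 0.07, adjusted p = 0.26) in BB-p53n DMSO and 0.56 (SE 0.07, adjusted p = 3.0e-07) with the inhibitor. The latter was -0.17 after correction (adjusted p = 0.0118), so the direction of Sox12, whose transcript has 59.9% GC, is not settled by these libraries.

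The Sox4 to Sox11 ratio per exon length shows how the balance within SoxC differed. It was 15.2, 13.8 and 13.3 in p53n, 2.12, 2.21 and 2.26 in BB-p53n DMSO, then 2.69, 3.2 and 3.05 in BB-p53n EZH2i. No groups overlapped, and the exact permutation test gave a two-sided p = 0.10 for each pair, the smallest possible with 3 against 3. The difference in log2 ratio between BB-p53n DMSO and p53n was -2.68, and between BB-p53n EZH2i and BB-p53n DMSO 0.44. The direction of the latter is not kept after correction, where Sox4 was at -0.91 and Sox11 at -0.57. The Sox4 to Sox12 ratio was 9.21, 8.93 and 9.47 in p53n, 3.36, 2.85 and 2.78 in BB-p53n DMSO, then 1.34, 1.2 and 1.25 in BB-p53n EZH2i. These were among 5 ratios compared over the 3 pairs of groups, and no p-value was adjusted because none could pass the threshold.

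Of 6 described SoxC targets, 1 was called higher and 4 lower in BB-p53n DMSO against p53n, with a median of -0.76 beside -0.02 over all genes, where 69.3% of all genes were called (35.3% higher and 34% lower). Tead2, a Hippo pathway factor gene, fell from 31.9 to 4.9 CPM (log2 fold change -2.70, adjusted p = 4.4e-14). Dcx, a microtubule-binding protein gene of migrating neuroblasts, fell from 435 to 212 CPM (-1.04, adjusted p = 4.9e-11), and Hes5, which is also on the SoxB1 list, fell as given there. With the inhibitor 3 were called higher and 3 lower (median 0.18), and after correction 2 and 3 (median -0.08). Of all genes 37.3% were called higher and 35.6% lower in that comparison, and 28.7% and 29.2% after correction. Dcx went on to 54.7 CPM (-1.95, adjusted p = 3.2e-14), a value that was -0.36 after correction (adjusted p = 2.3e-05). Map2, a neuronal microtubule protein gene, went from 1424 to 448 CPM (-1.67, adjusted p = 1.4e-12; corrected -0.82), and Tubb3, a neuronal tubulin gene, from 37.1 to 85.4 CPM (1.20, adjusted p = 3.5e-10; corrected 0.29).

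Among the SoxD genes, Sox6 (ENSMUSG00000051910, chromosome 7, 115070107 to 115638031, with many annotated exons over 568 kb) had the highest level per exon length. It was at 817, 822 and 793 CPM in p53n, 691, 678 and 706 CPM in BB-p53n DMSO, then 263, 254 and 246 CPM in BB-p53n EZH2i. The groups did not overlap, with a small first step and a large second one. Sox6 fell by 0.23 on the log2 scale in BB-p53n DMSO (SE 0.06, adjusted p = 0.00242), a call that was lost without p53n replicate 1 (-0.14, adjusted p = 0.091) or p53n replicate 3 (-0.16, adjusted p = 0.0526). With the inhibitor it fell by 1.44 (SE 0.06, adjusted p = 1.6e-13), the largest fall among the members as fitted, and by 0.45 after correction (adjusted p = 2.6e-07). Maml2, Zmym4 and Fem1c were the genes most like it in uncorrected levels (root mean square difference 0.048 to 0.056). The part of GC content and length in that likeness was not tested.

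Sox5 (ENSMUSG00000041540, chromosome 6, 143774151 to 144727703, spanning 954 kb), the partner of Sox6, was at 109.6, 103 and 107 CPM in p53n, 60.3, 56.5 and 55.5 CPM in BB-p53n DMSO, then 34.8, 39.5 and 36.1 CPM in BB-p53n EZH2i. The libraries fell into separate ranges in that order. Sox5 fell by 0.89 on the log2 scale in BB-p53n DMSO (SE 0.07, adjusted p = 6.7e-10; corrected -0.91). With the inhibitor the log2 fold change was -0.65 as fitted (SE 0.07, adjusted p = 1.3e-07), 0.48 corrected for GC content and length (adjusted p = 1.9e-05) and -0.05 corrected for GC content alone (adjusted p = 0.619). Its transcripts are the lowest in GC of the members, and its direction with the inhibitor is not settled. Sox5os1 covers 9.25% of its exon bases on the opposite strand and received at most 2 counts in a library. How reads in the bases shared with Sox5os1 were assigned was not tested.

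Sox13 (ENSMUSG00000070643, chromosome 1, 133310041 to 133352115) was the SoxD gene with the lowest level per length in p53n and BB-p53n DMSO. It was at 17.8, 19 and 18.3 CPM in p53n, 7.64, 6.31 and 6.23 CPM in BB-p53n DMSO, then 13.5, 13 and 15.1 CPM in BB-p53n EZH2i. The inhibitor libraries lay between the other groups with no overlap. Sox13 fell by 1.45 on the log2 scale in BB-p53n DMSO (SE 0.12, adjusted p = 6.0e-10; corrected -1.61) and rose by 1.04 with the inhibitor (SE 0.12, adjusted p = 1.1e-07). The rise was 0.29 after correction (adjusted p = 0.0301) and 0.23 with GC content alone removed (adjusted p = 0.0773).

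The Sox6 to Sox5 ratio per exon length was 7.22, 7.7 and 7.19 in p53n, 11.1, 11.6 and 12.3 in BB-p53n DMSO, then 7.34, 6.25 and 6.62 in BB-p53n EZH2i. The BB-p53n DMSO libraries were the highest (exact permutation test, two-sided p = 0.10 against each other group, the smallest possible). After correction the inhibitor values were -0.45 for Sox6 and 0.48 for Sox5. Of 4 co-repressor genes of SoxD proteins, 2 were called higher and 0 lower in BB-p53n DMSO against p53n by edgeR, at a median of 0.22, where 35.3% of all genes were called higher and 34% lower. Ctbp1 rose from 220.5 to 322 CPM (log2 fold change 0.55, adjusted p = 2.1e-07) and Ctbp2 from 54.4 to 66.9 CPM (0.30, adjusted p = 0.0015). After correction Ctbp2 was at 0.16 (adjusted p = 0.0523), which left 1 of the 4 called. With the inhibitor 1 was called higher and 2 lower, at a median of -0.18 (corrected 0 and 1), where 37.3% of all genes were called higher and 35.6% lower (corrected 28.7% and 29.2%). Hdac2, a histone deacetylase gene, went from 264 to 135 CPM (-0.97, adjusted p = 1.6e-10; corrected -0.07, adjusted p = 0.368).

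**Figure D2:**
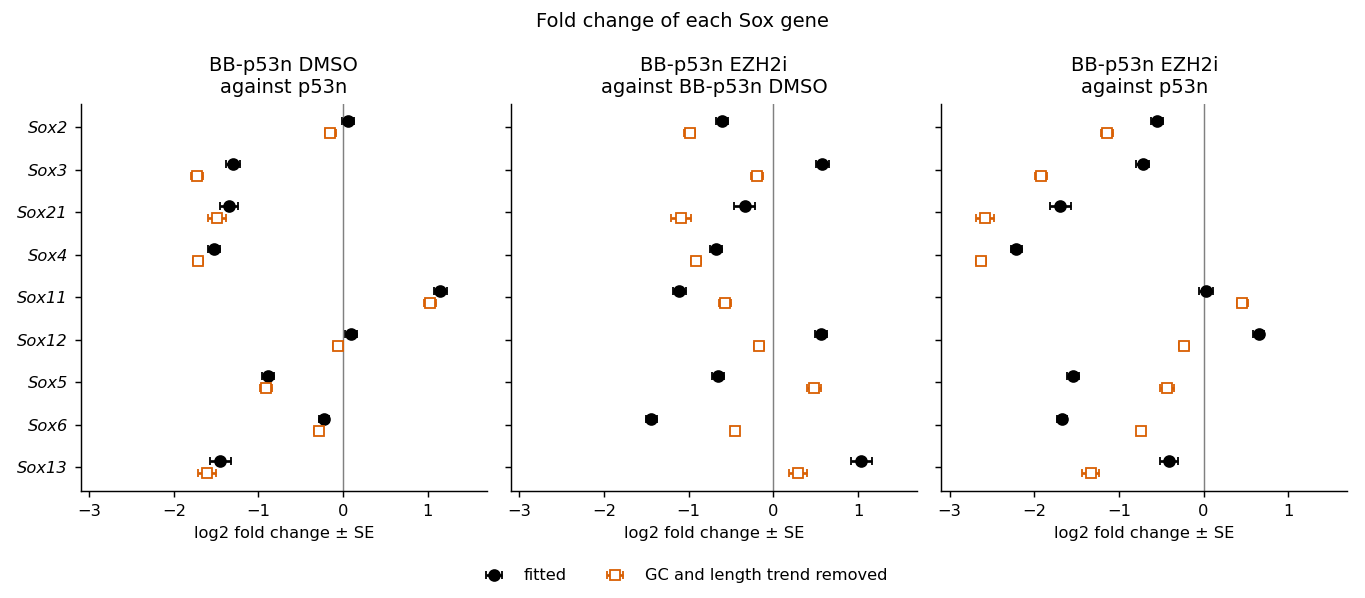
Log2 fold change of each member (x axis, bars ± SE) in the 3 comparisons, as fitted (filled circles) and corrected for GC content and length (open squares). In BB-p53n DMSO against p53n the fitted and corrected values have the same sign for the 7 called members, with the widest gap for Sox3 (-1.30 and -1.73), while Sox2 and Sox12, which were not called, cross 0. In the inhibitor comparison Sox3, Sox12 and Sox5 cross 0.

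**Figure D3:**
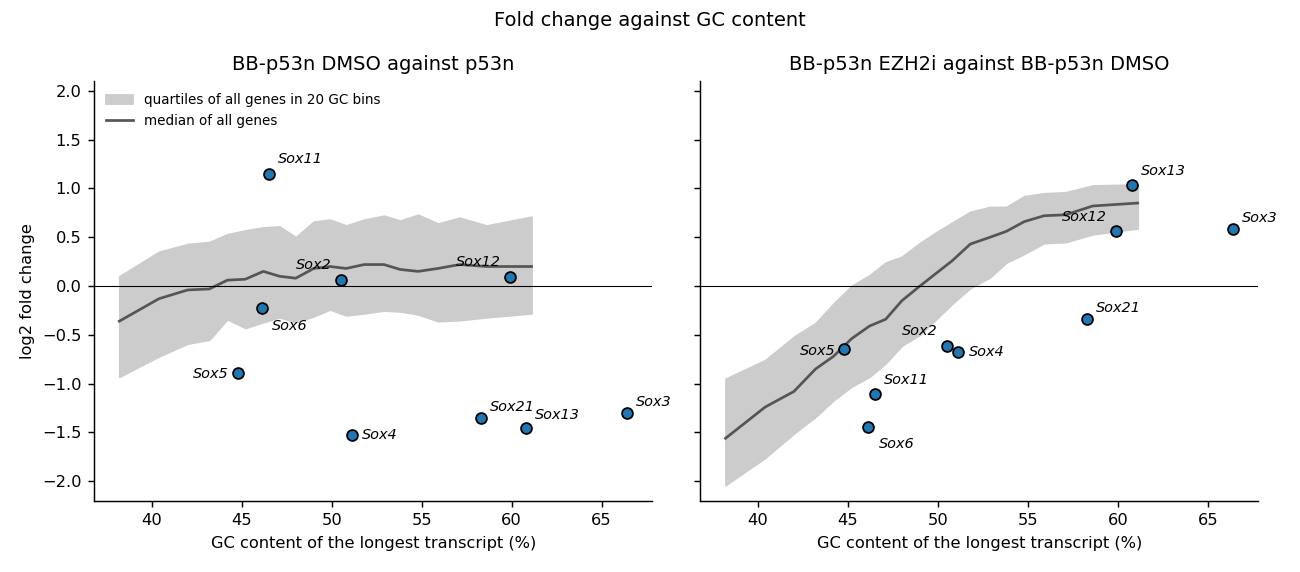
Log2 fold change (y axis) against GC content of the longest transcript (x axis, percent) for the members (points), with the median (line) and quartiles (shading) of all genes with an average log2 CPM above 1 in 20 bins of GC content. The line goes from -0.36 to 0.20 in BB-p53n DMSO against p53n and climbs from -1.56 to 0.85 in BB-p53n EZH2i against BB-p53n DMSO. In the latter Sox21 at 58.3% GC, Sox4 at 51.1%, Sox2 at 50.5%, Sox11 at 46.5% and Sox6 at 46.1% lie below the shading.

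Against genes of like GC content, the members can be read from the plot of fold change by GC content. With the inhibitor, genes in the bin with a median GC of 58.6% had a median log2 fold change of 0.82 (quartiles 0.53 and 1.03), and Sox21, at 58.3%, had -0.34. Genes in the bin at 50.8% had a median of 0.26 (quartiles -0.18 and 0.65), where Sox2, at 50.5%, had -0.61 and Sox4, at 51.1%, had -0.68. Sox6 (46.1%) and Sox11 (46.5%), at -1.44 and -1.11, lay under the lower quartile of -0.93 in the bin at 46.2%. Sox5 at -0.65 (44.8% GC) lay within the quartiles of the bin at 45.2% (-1.03 and 0.00), and Sox13 at 1.04 (60.8% GC) was at the upper quartile of the bin at 61.1%, 1.04. Sox12, at 0.56 (59.9% GC), lay between the bins at 58.6% and 61.1%, whose lower quartiles were 0.53 and 0.59. Sox3, at 0.58 (66.4% GC), was under the lower quartile of the bin at 61.1% and lies beyond that bin's median GC.

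Levels were compared between genes per kilobase of annotated exon. In p53n the order was Sox4 (222 ± 6.73 CPM per kb, SD, n = 3), Sox2 (124 ± 2.82), Sox6 (54.6 ± 1.05), Sox3 (50.8 ± 5.45), Sox12 (24.2 ± 1.45), Sox11 (15.8 ± 1.05), Sox21 (13.1 ± 1.15), Sox5 (7.42 ± 0.217) and Sox13 (4.26 ± 0.142). Among neighbours in that order the libraries of Sox6 and Sox3 overlapped. In BB-p53n DMSO Sox2 led with 129.9 ± 4.41 CPM per kb (n = 3), followed by Sox4 with 76.9 ± 5.02, Sox6 with 46.6 ± 0.928, Sox11 with 35.1 ± 3.35, Sox12 with 25.7 ± 1.05, Sox3 with 20.6 ± 0.615, Sox21 with 5.13 ± 0.16, Sox5 with 4 ± 0.178 and Sox13 with 1.56 ± 0.184, with no overlap of neighbours. In BB-p53n EZH2i the order was Sox2 (85.1 ± 9.6), Sox4 (47.9 ± 1.29), Sox12 (38 ± 1.94), Sox3 (30.8 ± 0.887), Sox6 (17.2 ± 0.566), Sox11 (16.2 ± 1.63), Sox21 (4.03 ± 0.835), Sox13 (3.22 ± 0.26) and Sox5 (2.56 ± 0.168). There Sox6 overlapped Sox11, and Sox21 overlapped Sox13. The exon length of Sox5 (14376 bases) and Sox6 (14832 bases) sums many alternative exons and exceeds the longest transcript (7243 and 8668 bases), so their levels per length are understated. By longest transcript Sox6 stood above Sox4 in BB-p53n DMSO, and Sox5 stood above Sox21 and Sox13 in all 3 groups.

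The summed level of the 9 genes was 516, 533 and 503 CPM per kb in p53n, 359, 341 and 337 in BB-p53n DMSO, then 254, 233 and 249 in BB-p53n EZH2i. It stepped down with no overlap between groups. Sox4 alone made up 43% ± 0.146 (SD, n = 3) of the sum in p53n, 22.3% ± 0.731 in BB-p53n DMSO, then 19.6% ± 0.581 in BB-p53n EZH2i. Sox2 made up 24.1% ± 0.731, 37.6% ± 0.83 and 34.7% ± 2.46 in the same order, and Sox11 3.06% ± 0.201, 10.1% ± 0.624 and 6.59% ± 0.399. With the GC and length trend divided out the Sox11 shares were 2.46%, 8.74% and 9.55%, so its fall in the inhibitor group turned into a rise. By family, SoxC went from 50.8% ± 0.171 to 39.8% ± 0.871 and 41.7% ± 1.49, and SoxB from 36.4% ± 0.0535 to 45% ± 0.792 and 48.9% ± 1.8. SoxD went from 12.8% ± 0.212 to 15.1% ± 0.539 and 9.37% ± 0.416. Corrected the same way, SoxC was at 50.3%, 40.1% and 41.5%, close to these values. SoxB was then at 40.2%, 47.7% and 42.6% and SoxD at 9.44%, 12.2% and 15.9%, so the second step of SoxB and SoxD turned around too.

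**Figure D4:**
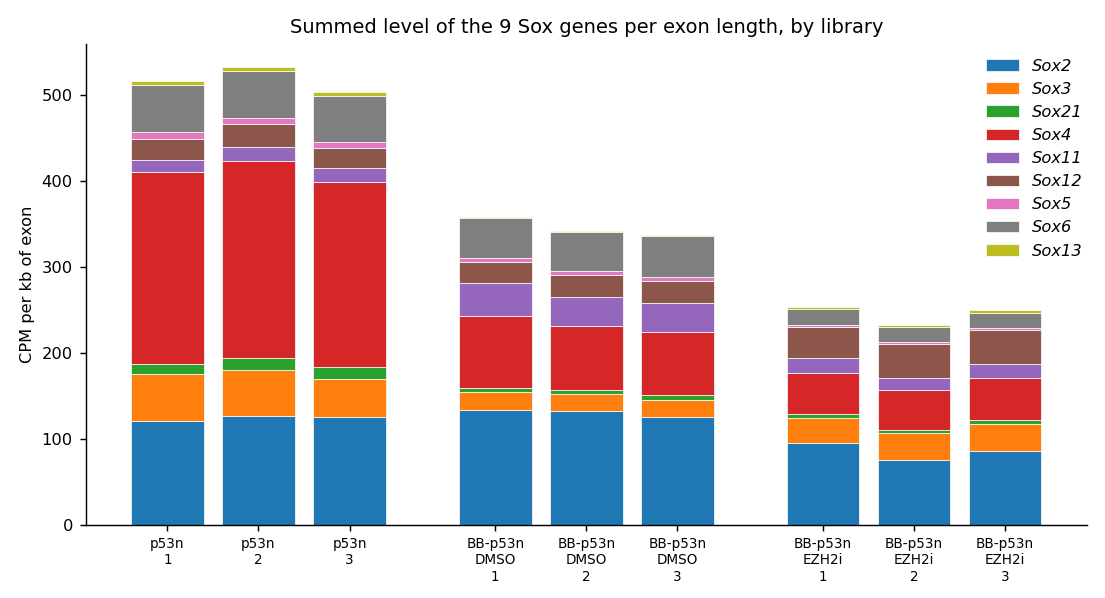
Level of each member per exon length in each library (y axis, CPM per kb of exon, stacked from 0), by group and replicate. The stack is highest in the p53n libraries (503 to 533), where Sox4 is the largest block, and lowest in the BB-p53n EZH2i libraries (233 to 254), where Sox2 is the largest.

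Between BB-p53n EZH2i and p53n, a contrast that joins PDGF-BB, solvent and drug and shares its libraries with the other comparisons, 1 member was called higher (Sox12) and 7 lower, where 82% of all genes were called, 40.3% higher and 41.7% lower. The groups did not overlap for 8 members, against 82.2% of all genes. The members' median was -0.72 beside -0.04 over all genes, and 0 were at least 2-fold higher and 4 at least 2-fold lower, against 22.1% and 28.9% of all genes. Corrected, 1 member was called higher (Sox11) and 8 lower, where 78.6% of genes were called (35.6% higher and 43% lower). The largest falls were those of Sox4 (log2 fold change -2.21, SE 0.07, adjusted p = 8.8e-17; corrected -2.63) and Sox21 (-1.69, SE 0.12, adjusted p = 5.3e-11; corrected -2.58). Sox6 was at -1.67 and Sox5 at -1.54, which were -0.74 and -0.43 after correction, and Sox3 was at -0.72, which was -1.92. Sox2 was at -0.55 and Sox13 at -0.41, which were -1.14 and -1.33 after correction, and Sox12 at 0.65 was -0.23 after correction. The 7 members called lower were also lower after correction.

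Of 11 other Sox genes, 4 passed the filter: Sox1 of SoxB1, and Sox8, Sox9 and Sox10, the SoxE genes. Sox10, which drives the oligodendrocyte programme and is opposed by Sox5 and Sox6, was at 2.36, 1.87 and 2.4 CPM in p53n, 297, 317 and 284 CPM in BB-p53n DMSO, then 452, 454 and 470.0 CPM in BB-p53n EZH2i. It rose by 7.07 on the log2 scale in BB-p53n DMSO (SE 0.10, adjusted p = 2.9e-21), and the inhibitor value of 0.62 (adjusted p = 5.1e-08) was -0.25 after correction. Sox8, its relative, was at 447, 452 and 438 CPM in p53n, 85.6, 90.6 and 91.4 CPM in BB-p53n DMSO, then 156, 137 and 153 CPM in BB-p53n EZH2i. It fell by 2.32 on the log2 scale in BB-p53n DMSO (SE 0.07, adjusted p = 1.0e-16), so these relatives went in opposite directions there. Its inhibitor value of 0.74 (adjusted p = 4.2e-09) was 0.09 after correction (adjusted p = 0.206). Sox9 was at 399, 507 and 388 CPM on average, called higher by 0.35 (adjusted p = 1.2e-04) in BB-p53n DMSO and lower, at -0.39 (adjusted p = 2.8e-05), with the inhibitor. Sox1, the third SoxB1 gene, was at 15.1, 15.5 and 23.5 CPM. Sox1 showed 0.04 (adjusted p = 0.727) in BB-p53n DMSO and 0.60 (adjusted p = 1.3e-05; corrected -0.03) with the inhibitor. Of the others, Sox14, Sox17 and Sry had no counts in any library, and Sox7, Sox15, Sox18 and Sox30 had at most 26 counts summed over a group.

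Markers of other cell types moved beside the members, and their counts stand against 69.3% of all genes called in BB-p53n DMSO against p53n (34% lower) and 72.9% with the inhibitor (35.6% lower). After correction 57.9% of all genes were called with the inhibitor, 28.7% higher and 29.2% lower. Of 8 astrocyte markers 8 were called lower in BB-p53n DMSO against p53n (summed level 1128 to 1154 CPM against 1684 to 1852 CPM), where Gja1 went from 8.32 to 0.181 CPM and S100b from 160.5 to 73.9 CPM. With the inhibitor the list summed to 1191 to 1321 CPM and Aqp4 had no counts. Of 12 neuron markers 10 were tested, with 3 called higher and 7 lower in BB-p53n DMSO, and the list summed to 235 to 241 CPM in p53n and from 199.5 to 224 CPM in BB-p53n DMSO, then 160.3 to 163 CPM in BB-p53n EZH2i, with Gad2 at 0 in the last. Of 10 myelin genes, which summed to 886 to 928 CPM in p53n against 337 to 347 CPM in BB-p53n DMSO, then 410.4 to 431 CPM in BB-p53n EZH2i, 9 were tested and 7 were called lower and 1 higher in BB-p53n DMSO. The OPC list, 11 genes, was split, with 5 called higher and 5 lower in BB-p53n DMSO and 4 and 4 with the inhibitor as fitted, but after correction 1 higher and 9 lower with the inhibitor (median -0.47). Few markers of other cells passed the filter: of 2 microglia markers tested 1 was called higher and 1 lower in BB-p53n DMSO, of 3 endothelial markers 1 higher, and of 3 mural and fibroblast markers 1 lower. With the inhibitor each of these lists had 1 gene called lower as fitted and 0 lower after correction, where 1 endothelial marker was called higher. The neuron list then had 3 called higher and 5 lower (corrected 4 and 4), the astrocyte list 2 and 3 (corrected 1 and 1), and the myelin list 4 and 2 (corrected 4 and 1). The part of cell composition in the changes of the Sox genes was not tested.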

How the data were processed

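RNA of 9 libraries was analysed from 1 table of raw counts that the authors deposited, not normalized, each count a read pair assigned to a gene. Per the file headers, featureCounts 1.6.3 counted fragments over exons with a mapping quality of at least 20 and both ends mapped, on an Ensembl annotation of GRCm39, with no strand option. Per the labels' protocols, 500 ng of RNA per sample entered a poly(A) kit and was read as 150 bp pairs. The submitters' processing notes name Trimmomatic and Subread; how reads were aligned is not stated in the labels or header. Exon length is the deposited Length column, in bases. Symbols matched 52073 of 56980 identifiers (91.4%).

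Genes were filtered with filterByExpr in edgeR 4.0.16 (R 4.3.3), library sizes scaled with TMM, and 1 robust quasi-likelihood model fitted to all 9 libraries with group as the only term (17001 genes, common biological coefficient of variation 0.0815). Adjusted p-values are Benjamini-Hochberg values over all genes tested, threshold 0.05, and levels are TMM-scaled CPM. The corrected fit adds, per library, a smooth trend of log2 CPM on GC content and log exon length (mgcv 1.9.3) as an offset, for the 16652 genes with both. GC content was that of each gene's longest GENCODE transcript (GRCm38), matched on the Ensembl identifier. Alternatives were DESeq2 1.42.0, other scalings and filters, a replicate block, groups fitted alone, libraries left out and genes outside chromosomes X, Y and MT. Replicate libraries differed by more than sampling noise (median chi-square per gene 1.39 to 4.23). The code was tested on simulated counts with 200 changed genes.

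The members and gene lists were chosen with earlier results of these data known, and the targets in the lists come from general knowledge. Genes named are all members, tested other Sox genes, in each list at most 3 called members with the smallest adjusted p per comparison, the manipulated genes, and the 3 genes most like the leading member of SoxB, SoxC and SoxD. Xist, Sox2ot and genes overlapping a member were added after their values were seen.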

Additional observations from a re-analysis of the deposited data

How the results depend on the processing

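The number of members called was 6 or 7 in BB-p53n DMSO against p53n, 6 to 9 with the inhibitor against BB-p53n DMSO, and 7 to 9 in BB-p53n EZH2i against p53n under the alternatives run, with the 6 in the inhibitor comparison under removal of the GC trend alone. Upper quartile scaling moved the median of all genes from -0.02 to -0.16 in BB-p53n DMSO against p53n. The values below turned in sign unless said otherwise, and the cause was not tested. In BB-p53n DMSO against p53n, Sox2 was at -0.08 under upper quartile scaling, -0.15 with the GC and length trend removed, -0.13 with GC alone or with longest transcript length, and -0.16 with the trend removed and the replicate block. Sox12 was at -0.06 under upper quartile scaling, the GC and length trend, longest transcript length and the block with the trend, and -0.07 with GC alone. Without chromosomes X, Y and MT it was called, at 0.17 (edgeR adjusted p = 0.0363).

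In BB-p53n EZH2i against BB-p53n DMSO, Sox3 was at -0.19 with the GC and length trend removed, with or without the block, -0.16 with GC alone and -0.17 with longest transcript length. Sox12 was at -0.17, -0.23 and -0.07 and Sox5 at 0.48, -0.05 (no turn, the call lost) and 0.37 under these 3 settings, and both were the same, -0.17 and 0.48, with the block added. In BB-p53n EZH2i against p53n, Sox12 was at -0.23, -0.30 and -0.13, and -0.23 with the block. Sox11, close to 0, was at -0.01 with DESeq2 or its size factors, -0.06 under upper quartile scaling, 0.00 without a filter, -0.02 with a stricter filter (1 CPM in 3 libraries), -0.01 without p53n replicate 1 and -0.02 without BB-p53n EZH2i replicate 1, within a range of -0.02 to 0.13 when each library was left out. It was called at 0.46, 0.28 and 0.80 under the 3 trend settings. Other calls lost were those of Sox6 and Sox21 without single libraries and of Sox13 with GC alone, as given with each gene. In BB-p53n EZH2i against BB-p53n DMSO, Sox3 turned but was not called with GC alone (edgeR adjusted p = 0.0784) or longest transcript length (adjusted p = 0.0511). Sox12 likewise turned there but was not called with longest transcript length (adjusted p = 0.312).

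Family shares without length scaling were 15.5%, 17.7% and 23.2% for SoxB, 49.2%, 41.6% and 48.8% for SoxC and 35.3%, 40.7% and 27.9% for SoxD in the order p53n, BB-p53n DMSO, BB-p53n EZH2i. With the trend divided out they were 40.2%, 47.7% and 42.6% for SoxB, 50.3% for SoxC in p53n, and 9.44%, 12.2% and 15.9% for SoxD. Removal of the trend on GC alone or with transcript length, and the corrected shares, were chosen after seeing the data. Replicate numbers did not pair the libraries: deviations of libraries with the same number correlated at -0.0533, -0.00682 and -0.0284 in BB-p53n DMSO and p53n and at 0.12, 0.0992 and -0.0122 between the PDGF-BB groups, and not every library correlated best with its own number. With the replicate block 11665, 12267 and 13854 genes were called, against 11780, 12397 and 13939 without it, and 7, 9 and 8 members, as without it.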

Other observations

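Transcription factor genes of the oligodendrocyte lineage, the setting in which SoxD and SoxE factors act, were lower in the PDGF-BB cells than in p53n for most of the list. Of 12 genes 8 were called lower and 2 higher in BB-p53n DMSO against p53n by edgeR's quasi-likelihood test, with a median log2 fold change of -1.23 beside -0.02 over all genes, of which 34% were called lower and 35.3% higher. Myrf, which switches on myelin genes, fell from 83.6 to 16.5 CPM (log2 fold change -2.34, adjusted p = 2.3e-14), Nkx2-2 fell from 112 to 46.7 CPM (-1.26, adjusted p = 9.0e-13) and Nkx6-2 from 6.34 to 0.13 CPM (-5.55, adjusted p = 1.5e-11). Among the myelin genes Cnp fell from 547 to 149.6 CPM (-1.87, adjusted p = 2.7e-15). With the inhibitor 3 of the 12 factor genes were called higher and 4 lower (corrected 2 and 7), where 37.3% of all genes were called higher and 35.6% lower (corrected 28.7% and 29.2%). Olig1 went from 1019 to 1538 CPM (0.59, adjusted p = 1.1e-07), a value that was -0.35 after correction.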
